A study of Mus musculus with 12 samples.

Results

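The nuclear-encoded subunit genes of the mitochondrial respiratory chain were examined in 8 mouse mammary tumors labelled ShcA-null, each hybridised against one pool of NIC tumor RNA. Members were taken by gene name: the Ndufa, Ndufb, Ndufc, Ndufs and Ndufv genes, Sdha, Sdhb, Sdhc and Sdhd, the Uqcr genes, the Cox4 to Cox8 genes and the Atp5 genes. The rule took 80 of the 27962 gene names on the array, through 108 probes, and all 80 were among the 20499 genes tested. By name, 35 belong to complex I, 4 to complex II, 7 to complex III, 17 to complex IV and 16 to complex V, the ATP synthase. Cox4nb, now named Emc8 and coding for a subunit of a membrane complex of the endoplasmic reticulum, entered by its name alone. Uqcr is now named Uqcr11, Atp5f1 is now Atp5pb, and Atp5s is now Dmac2l.

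NIC tumors carry a transgene in which the mammary tumor virus promoter drives an activated Neu (ErbB2) receptor together with Cre recombinase, so that floxed genes are lost in the mammary epithelial cells that express the oncogene, while stromal cells keep them. The tumors labelled ShcA-null and the NIC pool share that transgene. ShcA, coded by Shc1, is an adaptor that links tyrosine kinase receptors to Ras. The sources used here do not give age, strain, the floxed part of Shc1 or how many tumors were pooled, and the labels number the tumors without saying that they came from separate animals, so a p-value here measures the spread between these 8 samples.

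Complex I oxidises NADH and complex II oxidises succinate. Both pass electrons through ubiquinone to complex III and through cytochrome c to complex IV, which reduces oxygen, and the proton gradient built on the way drives the ATP synthase. Several complex IV subunits exist as a ubiquitous form and a form restricted to muscle, brown fat, lung or testis. The coactivator PGC-1alpha, coded by Ppargc1a, is known to raise the transcription of many of these genes.

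Each tumor was measured on a two-colour array with the tumor RNA in Cy5 and the pool in Cy3, and tumors 1 to 4 had a second array with the dyes swapped, 12 arrays in all. Values below are log2 ratios of tumor over pool after loess normalization, with both arrays of tumors 1 to 4 averaged (n = 8 tumors). A gene passed the test where limma gave an adjusted p under 0.05 for the mean ratio against 0. The pool counts as 1 control sample, so the test leaves out any spread between control tumors. In whole tumors, fewer cells of a type and less RNA per cell cannot be told apart.

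Shc1 itself did not pass the test. With Cy5 on the tumor RNA its log2 ratio read 0.33, -0.03, -2.05, 0.58, 0.71, 0.24, 0.52 and 0.30 in tumors 1 to 8, and with Cy3 on it 0.59, -2.22, 0.74 and 0.45 for the labels tumor 1 to tumor 4. The mean was 0.12 ± 0.65 (SD, n = 8; adjusted p = 0.716 by limma). Shc1 was low on the first array of tumor 3 and on the swapped array labelled tumor 2, and in the other tumors this probe did not read below the pool by more than 0.03. The part of Shc1 that was deleted is unknown here, so the probe may not test the label. Those same arrays were the most alike of any first and swapped pair (r = 0.82 over all kept probes), whereas the swapped array labelled tumor 2 had r = 0.14 with the first array of its own tumor. Of the other swapped arrays, that labelled tumor 1 was most like the first array of tumor 1 (r = 0.44), that labelled tumor 3 most like tumor 4 (r = 0.39) and that labelled tumor 4 most like tumor 8 (r = 0.68). The labelled pairing was kept, with the best-correlated pairing as an alternative. Tumors 6 and 7 also stood apart, as described with the probe positions further on.

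With loess, most respiratory chain genes lay near the pool's level. With median centring in place of loess the members' median was 0.57, against 0.16 for all genes. Of the 80 members, 3 passed the test as higher and 10 as lower in the tumors labelled ShcA-null than in the NIC pool, together 16.2%, against 17.3% of all genes tested. Among all genes 6.67% were higher and 10.6% lower. The members' means had a median of -0.10 and those of all genes -0.02, and 63 of the 80 lay within 0.5 of 0 on the log2 scale. The quartiles of the means were -0.33 and 0.13 for the members and -0.30 and 0.22 for all genes. One member, Cox8b, had a mean past 2-fold and did not pass the test, where 4.81% of all genes passed both. One sign in all 8 tumors was found for 14 of the 80 members, against 14.4% of all genes. As a share, the members that passed were close to the background.

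The 10 lower members were Ndufa1, Ndufa9, Ndufa13, Ndufb6, Ndufb8, Ndufb10 and Ndufs7 of complex I, Uqcr and Uqcrc2 of complex III, and Cox7a1 of complex IV, each below the pool in 8 of 8 tumors with loess; with plain median centring in place of loess, none of the 10 passed and 8 of the 10 had means above 0. Median centring moved the median of all genes to 0.16 and that of the members to 0.57. Then 18 of the 80 members passed as higher, against 2408 of 20499 genes. In tumors 1 to 4, where both dye orientations can be averaged, all 10 had means below 0 under median centring as well, 1 of them past the test, and the median was 0.06 for the members and 0.08 for all genes. With loess on those 4 tumors 9 members were lower, of which 5 belonged to the 10, against 1741 of 20481 genes. With the swapped arrays paired by best correlation and a dye term fitted, 2 of the 10 passed as lower, Cox7a1 and Ndufa9, against 4.51% of all genes, and the fitted values of all 10 lay below 0.

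**Figure D1:**
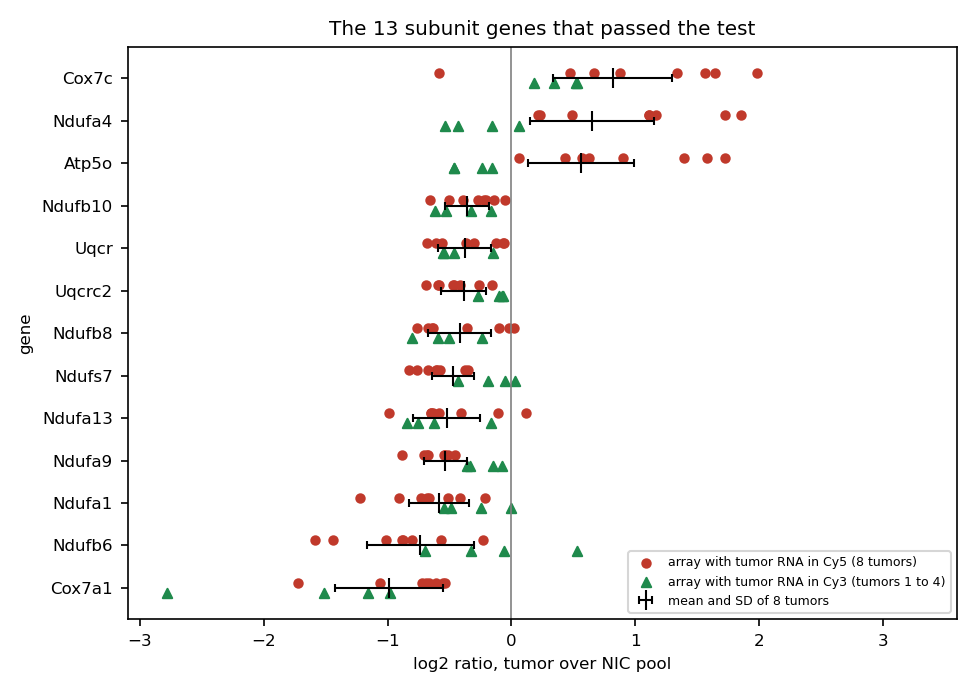
Log2 ratio of tumor over NIC pool (horizontal axis) of the 13 subunit genes that passed the test, with red points for the 8 arrays with the tumor RNA in Cy5, green triangles for the 4 swapped arrays and black bars for the mean and SD of the 8 tumors. The triangles of Cox7c lie above 0 with 7 of its 8 points, those of Atp5o lie below 0 against its points, and those of Cox7a1 lie at or below -0.98.

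Complex I gave 7 of the 10 lower members among 35, and 1 higher one, against 10.6% of all genes lower and 6.67% higher. The members of complex I had a median of -0.19 and 27 means lay below 0. For all genes the median was -0.02, and 10681 of 20499 means lay below 0. Ndufb6, an accessory subunit of the membrane arm, ranged over the 8 tumors between -1.44 and -0.14 with a median of -0.79, and averaged -0.74 ± 0.43 (SD, n = 8; adjusted p = 0.0115). No tumor lay above the pool, although the swapped array labelled tumor 2 read 0.53. Ndufa9, an accessory subunit beside the ubiquinone site, spanned the narrow range between -0.88 and -0.37 with a median of -0.49, and averaged -0.53 ± 0.17 (SD, n = 8; adjusted p = 0.00539). It was below 0 on all 12 arrays. Ndufs7, which carries an iron-sulfur cluster next to ubiquinone and was the only one of the 7 core subunits to pass, ranged between -0.76 and -0.28 with a median of -0.38, and averaged -0.47 ± 0.17 (SD, n = 8; adjusted p = 0.00842). Ndufa13, also known as Grim19, ranged between -0.99 and -0.11 with a mean of -0.52 ± 0.27 (SD, n = 8; adjusted p = 0.0129). The accessory subunit Ndufb10 was lower by less, at -0.36 ± 0.18 (SD, n = 8; adjusted p = 0.0256).

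Ndufa1 and Ndufb8, an X-linked and an autosomal accessory subunit of the membrane arm, were each measured by a pair of probes, and the outcome differed between the genes. The sequences are shown to tell these probes apart. They are bases 31 to 60 of each probe, 5′ to 3′ as in the array design, with mm7 positions of the whole probe and the strand read from the order of its coordinates. No base is in capitals because no motif is marked.
Ndufa1 downstream probe, chrX:31947395-31947454, minus strand: agaaggctatgcagcatattatatactatg
Ndufa1 upstream probe, chrX:31949641-31949700, minus strand: tatctctggagtcaatcgctactatgtgtc
Ndufb8 downstream probe, chr19:44442601-44442660, minus strand: tgtagtctaagccataaggctcgttgagta
Ndufb8 upstream probe, chr19:44444238-44446582, minus strand: tacaataatctgtacctggagcggggtggt

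The downstream probe of Ndufa1, the brighter one, ranged over the tumors between -0.90 and -0.23 with a mean of -0.58 ± 0.24 (SD, n = 8), and the upstream probe averaged -0.44 ± 0.22 (SD, n = 8). In a fit of all kept probes both passed, with adjusted p = 0.00818 for the downstream and 0.0199 for the upstream probe. For Ndufb8 the brighter upstream probe ranged between -0.64 and -0.02 with a mean of -0.42 ± 0.26 (SD, n = 8; adjusted p = 0.0316 in that fit). The downstream probe averaged 0.01 ± 0.50 (SD, n = 8; adjusted p = 0.964), and stood at 1.11 in tumor 6. The lower value of Ndufb8 therefore rests on one of its probes, whereas both probes of Ndufa1 passed.

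Ndufa4 was the member of complex I, by its name, that was higher. It is now counted among the subunits of complex IV. Its log2 ratio ranged over the tumors between 0.03 and 1.17 with a median of 0.78, and averaged 0.65 ± 0.50 (SD, n = 8; adjusted p = 0.0272). On the swapped arrays it read -0.43, 0.06, -0.16 and -0.53, so that 3 of 4 lay below the pool, and when the 12 arrays were fitted together with the dye as a term its value was 0.36 (adjusted p = 0.118). The next highest members of complex I, Ndufc1 (0.41 ± 0.42, adjusted p = 0.0823) and Ndufa12 (0.27 ± 0.46, adjusted p = 0.259), did not pass (SD, n = 8 each). A dimmer probe of Ndufc1 averaged -0.20, and dimmer probes of Ndufa12 averaged -0.30 and 0.18. None of these dimmer probes passed in the limma fit of all kept probes. The accessory subunits Ndufa10 (-0.76 ± 1.03, adjusted p = 0.129) and Ndufa11 (-0.63 ± 0.97, adjusted p = 0.177) had low means and wide SDs and did not pass (SD, n = 8 each). Both were lowest in tumor 6, at -3.19 and -3.02.

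None of the 4 subunits of complex II passed by limma, and 0 of the 4 had an unadjusted p under 0.05. Sdha, the flavoprotein that oxidises succinate, ranged over the tumors between -1.16 and 0.50 with a median of 0.41, and Sdhb, its iron-sulfur partner, between -3.52 and 0.43 with a median of -0.20. A dimmer probe of Sdha averaged -0.27, against 0.14 for the brightest one, and did not pass in the limma fit of all kept probes (adjusted p = 0.144). In tumor 6 the brightest probe minus the dimmer one was -0.89. The values of Sdha given here therefore rest on 1 of its probes. The membrane anchors Sdhc and Sdhd had medians of 0.33 and 0.14. The lowest value of Sdha, Sdhb and Sdhc was in each case that of tumor 6.

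Complex III had all 7 means below 0, between -0.39 and -0.08, against 10681 of 20499 for all genes. Of the 7, 2 passed as lower, against 10.6% of all genes. Uqcrc2, a core subunit, ranged between -0.69 and -0.21 with a median of -0.30, and averaged -0.39 ± 0.18 (SD, n = 8; adjusted p = 0.0195). Uqcr, the smallest subunit, ranged between -0.61 and -0.06 with a median of -0.38, and averaged -0.38 ± 0.21 (SD, n = 8; adjusted p = 0.0280). Both were below 0 on all 12 arrays. The Rieske iron-sulfur protein Uqcrfs1 differed between the dye orientations: its mean over tumors 1 to 4 was -0.73 with the tumor in Cy5, against 0.59 with the tumor in Cy3. Uqcrb, Uqcrc1 and Uqcrh, with means of -0.08, -0.10 and -0.12, did not pass.

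Complex IV had 1 member higher and 1 lower among 17, against 6.67% and 10.6% of all genes. Cox7c, a ubiquitous subunit, ranged between -0.03 and 1.56 with a median of 0.82, and averaged 0.82 ± 0.48, which is 1.77-fold (SD, n = 8; adjusted p = 0.0102). It was above 0 on 11 of 12 arrays, the first array of tumor 3 reading -0.58, and with a dye term fitted its value was 0.70 (adjusted p = 0.0230). Cox7a1, the form restricted to heart, skeletal muscle and brown fat, ranged between -1.75 and -0.54 with a median of -0.93, and averaged -0.99 ± 0.44, a 1.98-fold lower level (SD, n = 8; adjusted p = 0.00383). It was below 0 on all 12 arrays and was the lowest of the 13 members that passed. It also passed with a dye term (adjusted p = 0.000404), with the slide as a random block (adjusted p = 0.00958) and with median centring plus a dye term (adjusted p = 0.00621), and not with median centring alone.

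The tissue-restricted isoforms did not move together. In each tumor the ratio of a restricted form was set against that of its ubiquitous partner, for the 6 pairs with tested probes, by an exact two-sided sign-flip test adjusted over the 6 pairs. Cox7a1 minus Cox7a2 was below 0 in 8 of 8 tumors, ranging between -2.15 and -0.68, with a mean of -1.39 ± 0.51 (SD, n = 8; exact p = 0.00781, the smallest that 8 tumors allow; adjusted p = 0.0469). Cox7a2 itself had opposite signs by dye, at 1.14 with tumors 1 to 4 in Cy5 and -1.26 with them in Cy3, and from the Cy3 arrays alone the difference was -0.34.

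Cox6a2, the heart and skeletal muscle form of subunit 6a, stood at -0.13, 1.82, 1.63, 0.09, -0.11, 1.01, 1.05 and -0.05 in tumors 1 to 8. It was high in tumors 2, 3, 6 and 7 and near the pool in the others. Cox6a2 minus Cox6a1 averaged 0.83 ± 1.11 (SD, n = 8; exact p = 0.0703; adjusted p = 0.156). Markers of skeletal muscle were high with it in tumors 2, 3 and 7, and not in tumor 6: over the 8 of 10 listed markers with a tested probe, the median log2 ratio was -0.16, 2.51, 1.87, -0.01, -0.08, 0.15, 1.04 and 0.11 in the same order. By array, the muscle median was 2.26 on the first array of tumor 2, 3.98 on that of tumor 3 and 2.64 on the swapped array labelled tumor 2, where Cox6a2 read 1.07, 3.28 and 2.56. On the swapped array labelled tumor 3 the muscle median was -0.05 and Cox6a2 read -0.03, so that the values given for tumor 3 average a high array and one near the pool. The muscle creatine kinase Ckm stood at 2.59 in tumor 2, 1.71 in tumor 3, and the remaining tumors ranged between -0.77 and -0.02. Both Mylpf (0.99) and Tnnc2 (0.89) passed as higher, 2 of the 8. The 3 basal epithelial markers had a median of 1.77, 1.87, 1.90 and 1.27 in tumors 2, 3, 6 and 7, against 0.19 to 0.35 elsewhere. By array, the basal median was 0.47 on the first array of tumor 2 and 2.62 on the swapped array labelled tumor 2. It was 3.82 on the first array of tumor 3 and 0.08 on the swapped array labelled tumor 3. The basal values given for tumors 2 and 3 therefore also average a high array and a low one. The part of muscle or basal cell RNA in the values of Cox6a2 was not tested. Cox7a1, likewise a muscle form, read -1.72 and -2.78 on the arrays with the highest and the next highest muscle median.

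Cox8b, the form of subunit 8 found in heart, skeletal muscle and brown fat, had -0.86, -1.52, -1.62, -2.10, -2.20 and -1.88 in tumors 1, 2, 3, 4, 6 and 8, and 1.81 in tumor 7; no value was left for tumor 5 after outlier spots were dropped. Of the 7 tumors with a value, all but tumor 7 lay below the pool, and the mean of -1.20 ± 1.40 did not pass (SD, n = 7; adjusted p = 0.103). Without tumor 7 the mean was -1.70, and Cox8b passed. Tumor 7 also had the highest value of Ucp1, the uncoupling protein of brown fat, at 3.44, against values between -1.25 and -0.25 in the other tumors. The 3 tested brown fat markers, Ucp1 among them, had a median of 1.51 in tumor 7. Their median was 0.99 in tumor 6, where Cox8b was at -2.20, and between -0.77 and 0.08 elsewhere. The adipocyte list stood highest in tumor 7 too, with a median of 1.68 over its 8 markers, and so did the 8 leukocyte markers, with a median of 3.34. The part of these cell types in this value was not tested. The lung form Cox4i2 and the testis forms Cox6b2 and Cox8c had means of 0.12, -0.23 and -0.42, and none of their pairs passed.

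**Figure D2:**
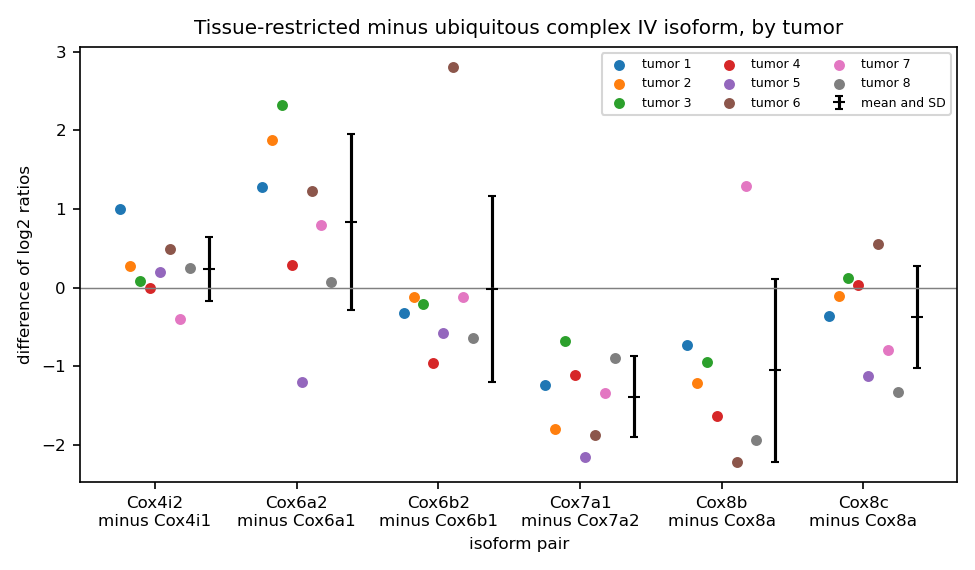
Difference of the log2 ratios (vertical axis) of a tissue-restricted complex IV isoform minus its ubiquitous partner, for 6 pairs, with 1 coloured point for each tumor and a black bar for the mean and SD. The 8 points of Cox7a1 minus Cox7a2 all lie below 0, whereas tumor 6 stands at 2.81 for Cox6b2 minus Cox6b1 and tumor 7 at 1.30 for Cox8b minus Cox8a.

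Of the 5 complexes, the ATP synthase genes differed most between the dye orientations: over tumors 1 to 4 the median of Cy5 minus Cy3 arrays was 1.07 for complex V and between -0.13 and 0.38 for the other complexes. The cytosolic ribosome genes differed by more, with a median of 2.39. With the labels' pairing, Atp5b, the catalytic beta subunit, had the highest mean of all members, 0.91 ± 0.99 (SD, n = 8; adjusted p = 0.0703), which did not pass, and with a dye term fitted its value was 0.04 (adjusted p = 0.805). With tumors 1 to 4 in Cy5 it read 1.45, 2.06, 1.35 and 2.15, and in Cy3 it read -1.55, -1.44, -2.06 and -1.67. The orientations did not overlap and had opposite signs. Atp5a1, the alpha subunit (mean 0.76 ± 0.75, SD, n = 8; adjusted p = 0.0566), read between 0.57 and 2.08 in Cy5, and between -1.38 and -1.14 in Cy3, and its value with a dye term was 0.12 (adjusted p = 0.588). A dimmer probe of Atp5a1 showed no such split: its mean was -0.34 ± 0.25 (SD, n = 8), and it read between -0.49 and -0.03 in Cy3. At the low end of complex V, the head subunit Atp5d (-0.55 ± 0.99), Atp5s (-0.48 ± 0.50) and Atp5l (-0.23 ± 0.22) did not pass (SD, n = 8 each). Over tumors 1 to 4, 14 of the 16 ATP synthase genes averaged above 0 in Cy5, and 16 of 16 averaged below 0 in Cy3. Of all members, 7 were above 0 on every Cy5 array and below 0 on every Cy3 array, 8.75% against 2.79% of all genes with opposite signs on every array: Atp5a1, Atp5b, Atp5e, Atp5h, Atp5o, Cox5a and Cox8a. Among the 1981 other genes in the brightest 10% that share was 9.44%, close to that of the members.

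The dye term of the 12-array fit tested this directly. It passed as higher with the tumor in Cy5 for 19 of the 80 members and as lower for 1, together 20 of 80, against 9.54% of all genes, with 4.48% of all genes higher. Members are bright: 69 of the 80 lie among the 10% of genes with the highest mean spot intensity, and of the other genes there 24.4% passed, a share close to that of the members. There 14.7% passed as higher in Cy5, against 23.8% of the members. By complex, the count passing as higher was 4 of 35 for complex I, 0 of 4 for II, 1 of 7 for III, 5 of 17 for IV and 9 of 16 for V. The largest terms were 3.45 for Atp5b, 2.67 for Atp5a1, 2.26 for Cox7a2 and 2.07 for Atp5j2. The swapped arrays share a slide of their own, so the slide and the dyes cannot be told apart there.

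Of the members that passed the main test as higher, Atp5o, a stalk subunit, ranged between -0.09 and 1.39 over the tumors with a median of 0.60, and averaged 0.56 ± 0.43 (SD, n = 8; adjusted p = 0.0301). Its swapped arrays all lay below the pool, with a mean of -0.33, and with a dye term fitted its value was 0.29 (adjusted p = 0.174). By slide, all 3 higher members had means above 0 on the slides of the first arrays, and 1, Cox7c, on the swapped slide (0.39). The 10 lower members had means below 0 on each of the 3 slides. They were picked on these same arrays, so that much of this agreement was fixed by the choice. A single sign on all 12 arrays was found for 8 of the 80 members, against 5.96% of all genes, and all of these were below the pool: Cox7a1, Ndufa1, Ndufa9, Ndufb10, Uqcr and Uqcrc2, which passed, and Ndufa11 and Ndufs1, which did not. The fit with a dye term and the labelled pairing kept all 10 lower members, and 1 of the 3 higher ones, Cox7c; with the best-correlated pairing it kept 2 lower members and no higher one. These fits used the arrays on which the members had passed and are no separate test of them.

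**Figure D3:**
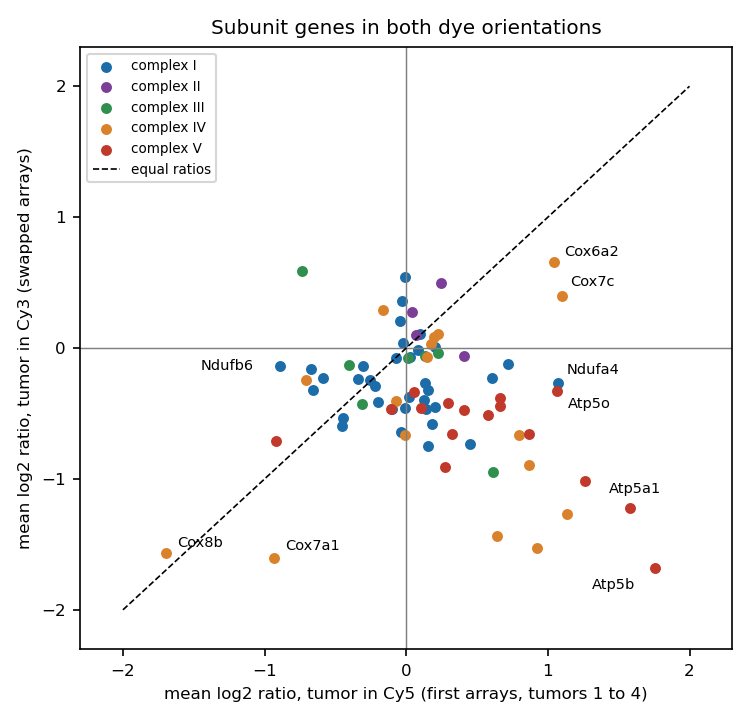
Mean log2 ratio of the subunit genes in tumors 1 to 4 with the tumor RNA in Cy5 (horizontal axis) and in Cy3 (vertical axis), coloured by complex; the dashed line marks equal ratios. Complex V genes spread into the lower right, with Atp5b at 1.75 and -1.68, while Cox7a1 lies at -0.93 and -1.61 and Cox7c at 1.10 and 0.39.

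**Figure D4:**
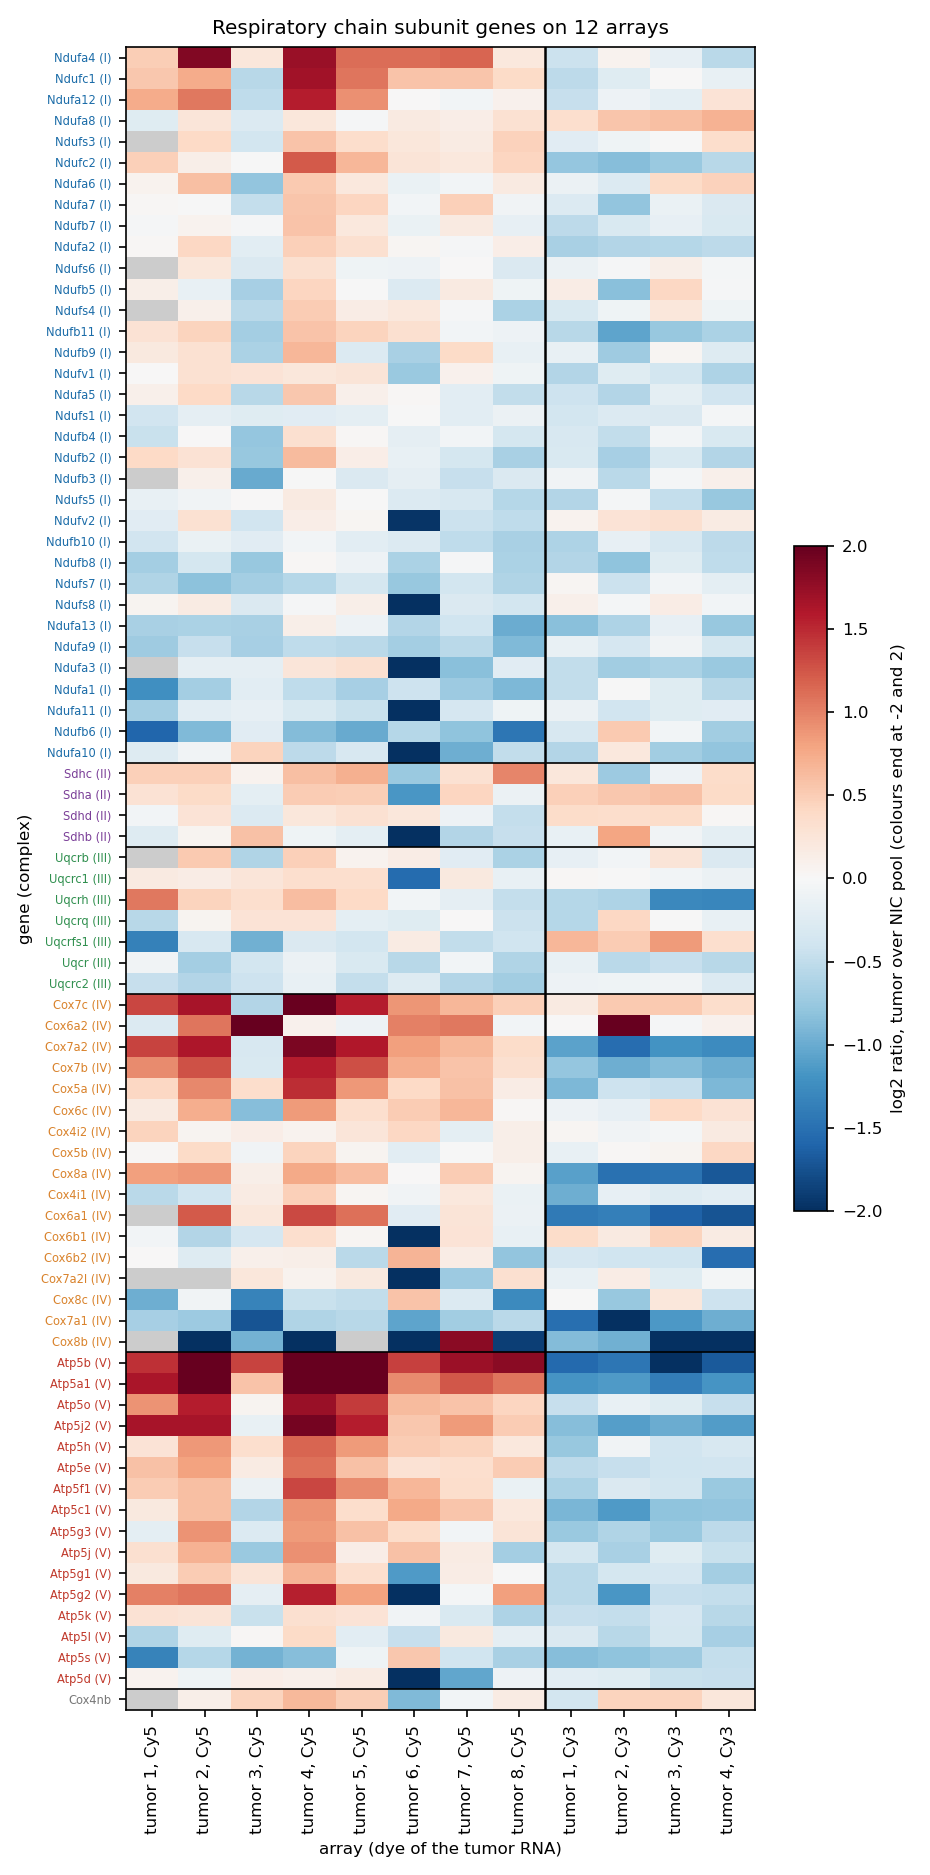
Log2 ratio of tumor over NIC pool of 79 of the subunit genes (rows, by complex and by mean) on each array (columns, with the dye of the tumor RNA), in red above and blue below the pool; grey marks a dropped value and colours end at -2 and 2. Of the 16 ATP synthase rows, 5 are red on every first array and blue on every swapped array. The other rows are mixed, and Atp5s is blue on most first arrays too. Dark blue cells stand out in the column of tumor 6, where Sdhb is at -3.52.

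Tumor 6 differed from the other tumors. There 16 members lay under -1 and 11 under -2, against between 1 and 3 members under -1 in each other tumor. Ndufs8, a core subunit of complex I, stood at -3.40 in tumor 6, against values between -0.37 and 0.12 in the other 7 tumors, and Cox6b1 at -2.13 against values between -0.20 and 0.27. The drop was uneven within a complex: in tumor 6 Ndufs3, also a core subunit, stood at 0.23 and Ndufs1 at -0.01. It was not particular to the respiratory chain, since 16 of the 80 members and 21.5% of all genes lay under -1 in tumor 6. In tumor 7 it was 1 of 80 members and 13.8% of all genes.

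Within a gene the ratio of tumors 6 and 7 depended on where the probe lay. For 5940 genes with kept probes at least 500 bases apart on one strand, the upstream probe was at least 2-fold lower in ratio than the downstream probe for 46.6% of genes with values in tumor 6 and 39.4% in tumor 7. On the other 10 arrays the share was between 1.14% and 10.2%. Among the members with such probes the share was 5 of 15 in tumor 6 and 2 of 15 in tumor 7, against 4 of 13 on the first array of tumor 1. The members' median of upstream minus downstream was -0.60 in tumor 6 and between -0.13 and 0.23 on the other 11 arrays, and in tumor 6 the median of the other genes was -0.87. The sources used here do not give RNA quality, and its part in these values was not tested.

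Of these 15 members Atp5b had the widest split between its probes in tumors 6 and 7, and the 3′ parts of its 3 probes are given to identify them, as bases 31 to 60 of each probe with mm7 positions.
Atp5b upstream probe, chr10:127585810-127586488, plus strand: ggtcctatcaaaaccaaacaattcgctcct
Atp5b middle probe, chr10:127586901-127586960, plus strand: ggtgaaaagacccgtgagggcaatgattta
Atp5b downstream probe, chr10:127591587-127591646, plus strand: tctctgaagagtatttaaagttttcaataa

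In tumor 6 these probes read -3.14, -3.01 and 1.36, and in tumor 7 they read -3.20, -2.61 and 1.72. In tumor 5, on the same slide, they read 0.75, 1.69 and 2.25. The downstream probe is the brightest of the 3 and stands for the gene in the test. The 3 probes also differed on the swapped arrays: with the tumor in Cy3 the upstream probe read between 0.33 and 0.45, the middle probe between -0.67 and -0.47, and the downstream probe between -2.06 and -1.44. Dye and slide cannot be told apart on those arrays. Atp5f1, a stalk subunit, had a like split in tumor 6, where its brightest probe read 0.67 and the next one upstream -2.35, although a probe further upstream read 0.20.

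**Figure D5:**
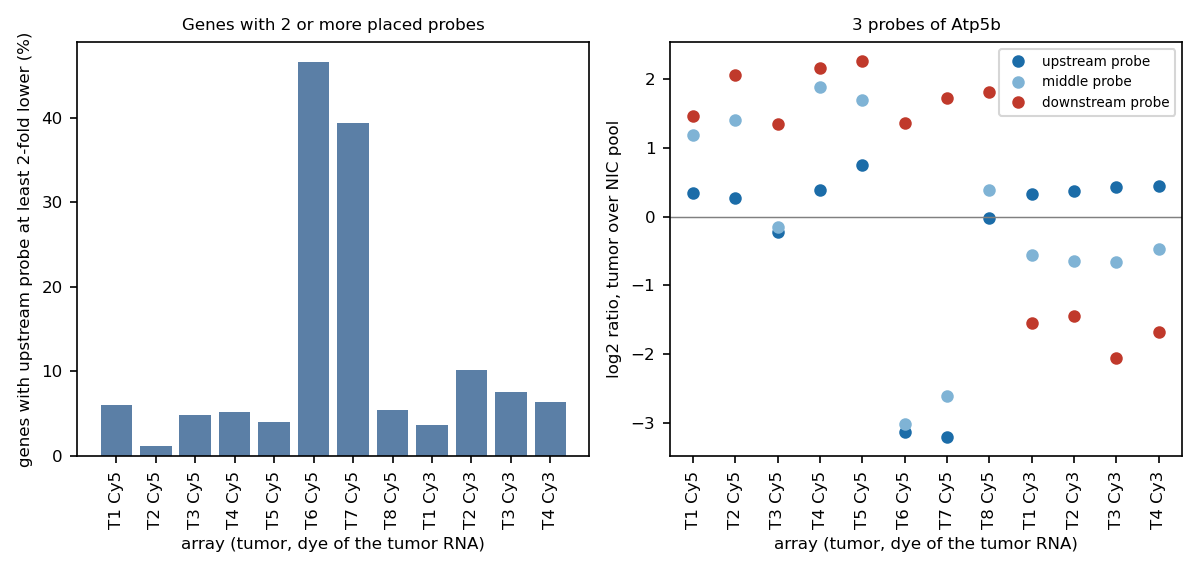
Left, the percentage of genes with placed probes whose upstream probe had a ratio at least 2-fold below the downstream probe, for each array (T is tumor, with the dye of the tumor RNA); right, the log2 ratio of tumor over NIC pool of the 3 Atp5b probes on the same arrays. The bars of tumors 6 and 7 stand at 46.6% and 39.4%, and on those arrays the upstream and middle probes lie below -2.6 while the downstream probe lies above 1.3.

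Leaving out tumors 6 and 7, a comparison added after seeing the data, gave 15 lower members, all of the 10 among them, and 1 higher member, Cox7c, against 24.7% of all genes called. Leaving out tumor 6 alone gave 14 lower and 4 higher of the 80 members, against 22.2% of all genes called. Of 20499 genes, 2765 were lower and 1778 higher in that fit. Ndufa10, Ndufa11, Atp5s and Cox8c then passed as lower, and Sdha, by its brightest probe, as higher. A dimmer probe of Atp5s averaged -0.10 over the 8 tumors (adjusted p = 0.504 in the limma fit of all kept probes). Cox8c was well above background in the tumor RNA on 7 of 12 arrays.

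Other genes of mitochondrial function were counted from lists, to be read against the 10.6% of all genes that passed as lower and the 6.67% that passed as higher. Among the regulators of mitochondrial biogenesis 2 of 17 passed as higher and 2 as lower. Ppargc1a was the lowest, ranging over the tumors between -2.28 and -0.62 with a median of -1.27 and a mean of -1.31 ± 0.58 (SD, n = 8; adjusted p = 0.00319). It was below the pool on 11 of 12 arrays, the first array of tumor 2 reading 0.19. Myc, a transcription factor that also acts on nuclear-encoded mitochondrial genes, averaged 0.61 ± 0.31 (SD, n = 8; adjusted p = 0.00913).

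Of 33 assembly factors 8 passed as lower, 24.2%, and 1 as higher. The 3 largest were factors of complexes I and III: Timmdc1 (-0.92 ± 0.60), Ttc19 (-0.79 ± 0.59) and Acad9 (-0.68 ± 0.45; SD, n = 8 each). Of 75 genes of the mitochondrial ribosome 11 passed as lower, 14.7%, and none as higher by limma (28 at an unadjusted p under 0.05 in either direction), with a list median of -0.19; Mrpl50, Mrps33 and Mrps15 had means of -0.72, -0.71 and -0.67. In the tricarboxylic acid cycle 1 of 16 passed, Sucla2, a succinate-CoA ligase subunit, at -0.62, and in import and transport 1 of 25, the channel Vdac2, at -0.39. None of the 10 other electron carriers and subunits passed, with 2 at an unadjusted p under 0.05. The cytosolic ribosome, measured for comparison of dye effects, had 28 of 87 higher and 1 lower, and its list median lay between 0.81 and 1.90 with tumors in Cy5 and between -1.30 and -0.79 with tumors in Cy3. In glycolysis 1 of 13 passed, Pkm2, at 0.80. Among the lists of cell types, 2 of 7 luminal and 2 of 3 basal epithelial markers and 1 of 8 leukocyte markers passed as higher, and none of 8 adipocyte, 3 brown fat and 9 pericyte markers passed by limma, with 0, 0 and 1 at an unadjusted p under 0.05.

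Across the 8 tumors the correlation between members was summarised by the median over pairs, which does not show how strong single pairs were. No such median over all genes was set beside it. Over 3081 pairs of the 79 members with all values, the median Pearson r was 0.16, and it was 0.21 within complexes and 0.15 across them. These points share arrays, dye orientation and the values of tumor 6.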

How the data were processed

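There were 12 arrays of 8 tumors, each tumor against the same pool. Feature Extraction 9.5.3.1 read the spots, per the file headers, on a design placed on mm7. The deposited mean foreground and median background intensities were not normalized. The deposited log10 ratio is red over green of processed signals, per the file headers. Other values are the deposited flags of 0 or 1. The authors' value table, used as an alternative, is on the log2 scale. Its slope against the scanner ratio was 0.758 to 0.797 on first arrays and -0.748 to -0.715 on swapped ones, which shows columns turned to tumor over pool; its column medians lay between -0.0715 and 0.137, and its normalization and centring stay unknown.

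Intensities were corrected by normexp (offset 50) and normalized by loess within arrays, without weight on control spots. The tools were limma (3.58.1), R (4.3.3) and data.table (1.17.8). Outlier spots were dropped (0.47% to 13.7% of an array), and spots of a probe and then arrays of a tumor were averaged. Probes stayed in if at least 4 tumors had an array with either channel well above background. Of the 80 member probes, 78 were so in both RNAs on all 12 arrays and none was saturated. The brightest such probe stood for a gene, and mean ratios were tested against 0 with limma, adjusted over 20499 genes. Older symbols were updated through RefSeq (GRCm38.p6). The number of arrays limits the precision. Code was tested on simulated data. The values of 1 member are not reported here, although it was counted among the 80.

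Members and lists were chosen with earlier results of these data known. The rule for named genes took members past 2-fold, the 3 highest and 3 lowest means of each complex, isoform pairs, Sdha, Sdhb, Sdhc and Sdhd, and the 3 largest genes that passed in a list. Members named for passing the test, for tumor 6, for the dyes or for their probes, and other markers, were chosen after their values were seen. Alternatives changed the normalization, filters, arrays, dye and slide terms, probes and tumors used.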

Additional observations from a re-analysis of the deposited data

Results flagged for a closer look

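In 13 of the 79 members examined for this 1 tumor lay far from the other tumors, 16.5%, against 16.1% of all genes; chance gives about 1 such gene in 20, and as a share the members were close to the background. In 12 of the 13 it was tumor 6, below all others: Sdhb (-3.52), Ndufs8 (-3.40), Ndufa10 (-3.19), Cox7a2l (-3.07), Ndufa11 (-3.02), Atp5d (-2.84), Atp5g2 (-2.83), Cox6b1 (-2.13), Ndufv2 (-1.96), Uqcrc1 (-1.54), Sdha (-1.16) and Atp5g1 (-1.14). In the other it was tumor 7, above all others, for Cox8b (1.81). Over all genes tumor 6 lay apart in this way, below the others, for 7.57%, against 15.2% of the members; that difference was not tested. None of the 13 passed the test over the tumors. Tumor 6 had the lowest share of spots with both channels above background, 61.9%, against between 65.6% and 73.0% on the other arrays; its part in these values was not tested.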

How the results depend on the processing

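No paired analysis was possible because 1 group of tumors was set against 1 pool. Members called higher (3) became 18 with median centring, 1 with Feature Extraction's processed ratios, 1 with the authors' value table, 12 with first arrays only, with or without a slide term, 0 with swapped arrays only, 0 with slide as a random block, and 0 with swapped arrays paired by best correlation; leaving out 1 tumor gave 1 to 7 (1 without tumor 2, 4 or 7, 7 without tumor 3). All genes called higher (1368) became, in the same order of settings, 2408, 1461, 1349, 1715 or 1565 with a slide term, 908, 623 and 738. Leaving out 1 tumor gave 664 to 1778 such genes. Members called lower (10) became 0 with median centring, 17 with the authors' value table, 17 with swapped arrays only, 17 with a dye term and 2 with swapped arrays paired by best correlation, and leaving out 1 tumor gave 7 to 14. All genes called lower (2173) became, in the same order of settings, 981, 2039, 748, 2648 and 925. Leaving out 1 tumor gave 1312 to 2765 such genes. The members' median (-0.10) became 0.57 with median centring, -0.28 with the authors' value table and -0.33 with swapped arrays only; leaving out 1 tumor gave -0.15 to -0.05. All genes called (3541) became 1656 with swapped arrays only, 1940 with slide as a random block, 1663 with swapped arrays paired by best correlation, and 1976 to 4543 leaving out 1 tumor (1976 without tumor 4, 2256 without tumor 8). Of these calls 61.4% were lower, against 28.9% with median centring and 45.2% with swapped arrays only. Settings added after seeing the data were tumors 1 to 4 alone (0 higher), tumors 6 and 7 left out (1 higher), tumors 1 to 4 alone with median centring (0 higher, 3 lower, median 0.061, 2327 genes), median centring with a dye term (1 lower, median 0.066) and the probe nearest the 3′ end (Ndufb8 0.014). Median centring turned 8 lower members above 0: Uqcrc2 0.33, Uqcr 0.39, Ndufa1 0.17, Ndufa13 0.25, Ndufa9 0.057, Ndufb10 0.30, Ndufb8 0.35 and Ndufs7 0.17. Swapped arrays alone turned Atp5o to -0.33 and Ndufa4 to -0.27. Cox7a1 minus Cox7a2 was -0.34 with swapped arrays only and -1.49 to -1.28 leaving out 1 tumor. Its call was lost in 6 of the 8 fits that left out 1 tumor (without tumor 1, 2, 3, 4, 7 or 8). Fewer tumors make the smallest possible exact p larger. Leaving out 1 tumor took away the call of Uqcr (without tumor 2, 3, 4, 5 or 8; mean -0.42 to -0.34 over the 8 fits), Ndufb10 (1, 3, 4, 7 or 8; -0.39 to -0.31), Ndufb8 (1, 2, 3, 4 or 8; -0.47 to -0.39), Atp5o (2, 4, 7 or 8; 0.44 to 0.65) and Ndufa4 (2, 4, 5 or 7; 0.58 to 0.74), and of none of the other 8 members that passed. Beyond what a setting changes by its construction, the cause was not tested. The pool being 1 sample, no setting covers the spread between NIC tumors.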
